A study of Mus musculus with 6 samples.

Results

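The CCT chaperonin, also called TRiC, is the folding machine of the cytosol for actin and tubulin. Its 8 subunit genes were followed in ovarian tumours of mice given RU486, a steroid that blocks the progesterone and glucocorticoid receptors, or a placebo. The 8 genes (Tcp1, Cct2, Cct3, Cct4, Cct5, Cct6a, Cct7 and Cct8) were chosen by the gene symbol of their probes in the platform annotation. Each had 1 probe, so 8 of 37932 probes and 8 of 21874 named genes are described.

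Of the 6 arrays, 3 held RU486 tumours and 3 held placebo tumours, each hybridised with Cy3-labelled total RNA of a mouse tumour. RU486 mice carried a chronic-release RU486 pellet for 24 h and placebo mice a placebo pellet for the same time, with tumours of 0.5 to 1 cm across. All mice of both groups carried the same alleles, written Pgrcre/+mPgrLsL/+ in the sample labels and Pgrcre/+PgrBLsL/+ in the series design. They made the progesterone receptor's B form, so the placebo tumours carry it as well. In such a cross, Cre recombinase placed in the progesterone receptor gene opens the LsL allele in cells where that gene is or was active. Mice without these alleles and mice without a pellet were not analysed here, and the labels give neither the age nor whether each array holds a different animal. P-values therefore measure only the spread between these samples, which may be technical.

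Each deposited value is a score, the probe's signal centred to a mean of 0 and scaled to an SD of 1 over the 6 arrays. A score says on which arrays a gene was high or low, and says nothing of how bright its probe was. Levels of different subunits and fold changes can therefore not be given, nor can ovarian marker genes be checked for presence. A higher score was taken as more RNA, although the direction of the scale is not stated. The median score of all probes lay between -0.363 and -0.0875 on the RU486 arrays and between -0.384 and 0.212 on the placebo arrays. In bulk tumour RNA, fewer cells of a type and less RNA per cell cannot be told apart.

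CCT consists of stacked rings, and each ring holds a copy of every subunit in a fixed order. Every subunit binds ATP, and the closing of the ring encloses the client protein while it folds. The complex is best known for actin and tubulin, and it also folds proteins with WD40 repeats such as the mitotic activator CDC20. Prefoldin hands unfolded actin and tubulin to it, and phosducin-like proteins assist it. Chaperonin genes are known targets of heat shock factors, which bind inverted repeats of GAA.

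The upstream sequences of the genes were searched for motifs of factors known to act on chaperone genes. The 8 genes lie on 8 different chromosomes. RefSeq promoters (build GRCm38.p6, 250 bases before to 50 after a start) were at hand for 7 of the genes, with 9 starts, of which Cct2 and Cct5 have 2 starts each. The motifs were TTCNNGAA and GAANNTTC for heat shock factors, CACGTG for the E-box and CCAAT for the CCAAT box, each on both strands. The heat shock factor motifs can overlap each other, and did not do so in these promoters. TTCNNGAA was found in 2 of the 9 member promoters and in 8.52% of all 32851 promoters of this length. GAANNTTC was found in 1 of the 9 and in 7.86% of all promoters. CACGTG was found in 0 of the 9 and in 7.15% of all promoters, and CCAAT in 4 of the 9 and in 37.4% of all promoters.

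The 3 windows with a heat shock factor motif are printed 5′ to 3′ on the gene's strand, with the motif in capitals. Positions count from the RefSeq start. The Cct2 window lies at chr10:117063402-117063425 on the minus strand with its motif from -42, the Cct5 window at chr15:31601865-31601888 on the minus strand with its motif from -34, and the Cct6a window at chr5:129787372-129787395 on the plus strand with its motif from 25.
Cct2: caagtgaaGAAGTTTCtagcagga
Cct5: gcggccgaTTCCAGAAgctactct
Cct6a: taagacttTTCGAGAAgaccccgc

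The 250 bases before the start are shown for Tcp1 (chr17:12916079-12916328, plus strand) and for Cct6a (chr5:129787106-129787355, plus strand). The RU486 and placebo scores did not overlap for Tcp1 and overlapped for Cct6a. Whether these genes differ in their response was not tested. CCAAT boxes are in capitals.
Tcp1: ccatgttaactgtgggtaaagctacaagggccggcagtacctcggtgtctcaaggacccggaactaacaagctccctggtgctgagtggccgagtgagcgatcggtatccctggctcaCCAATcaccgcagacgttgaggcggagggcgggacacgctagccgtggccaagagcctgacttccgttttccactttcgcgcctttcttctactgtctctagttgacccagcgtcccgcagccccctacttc
Cct6a: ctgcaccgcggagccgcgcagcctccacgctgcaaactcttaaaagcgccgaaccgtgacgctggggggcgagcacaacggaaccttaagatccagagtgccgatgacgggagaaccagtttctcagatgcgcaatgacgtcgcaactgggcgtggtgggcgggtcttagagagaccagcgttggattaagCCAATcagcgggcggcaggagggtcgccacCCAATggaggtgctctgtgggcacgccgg
These matches describe the letters only. Tcp1 holds 1 CCAAT box and Cct6a holds 2, and a CCAAT box alone is common among all promoters.

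With RU486, 6 of the 8 subunits had a lower mean score and 2 a higher one (4 and 4 once array medians were set equal), and none passed a test over all genes. This balance rested on RU486 array 3, the lowest array for most subunits, and without it 3 were lower and 5 higher. Differences are mean scores of the RU486 arrays less mean scores of the placebo arrays, in SDs of the probe. In the unweighted fit of the deposited scores of all 6 arrays they cannot pass 1.83 in size. With array weights or fewer arrays they can. Over the 8 subunits the median difference was -0.39, against -0.06 over all 21874 genes, 51.6% of which were lower. In limma, 0 of the 8 passed an adjusted p of 0.05 (lowest adjusted p = 0.396, background 0.00457% of all genes), and 0 had an unadjusted p under 0.05 (background 12.3%). The groups did not overlap in 1 of the 8, Tcp1, where 22.0% of all genes had groups that did not overlap, 10.8% with RU486 lower and 11.2% with RU486 higher. For a set of 8 genes, 1 such gene is close to the share in all genes. With eBayes moderation 0 of the 8 passed as well.

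Tcp1, the alpha subunit for which the complex was first named, had the difference of largest size among the subunits. It was exceeded by Cct7 with array weights or on leaving out placebo array 3, and by Cct5 on leaving out RU486 array 3. Its scores were -0.652, 0.0194 and -1.49 in RU486 arrays 1 to 3, against 0.407, 0.264 and 1.45 in placebo arrays 1 to 3. All 3 RU486 arrays lay below all 3 placebo arrays, with a gap of 0.244 between the nearest arrays. The difference was -1.42 (SE 0.576, 95% interval -3.02 to 0.183). The unadjusted p of limma's ordinary statistic was 0.0698 and the adjusted p = 0.396, and the exact permutation p was 0.1, the smallest that 3 against 3 arrays allow. Without single arrays the difference ran from -1.78 to -1.02.

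Cct7, the eta subunit, came next. Its scores were -0.245, 0.231 and -1.71 in RU486 arrays 1 to 3 and -0.0922, 1.30 and 0.518 in placebo arrays 1 to 3. RU486 array 2 lay above placebo array 1, so the groups overlapped. The difference was -1.15 (SE 0.709, adjusted p = 0.581 in limma), and it was -0.58 without RU486 array 3. With array weights it was -1.88 (SE 0.614, unadjusted p = 0.0375, adjusted p = 0.167), where Tcp1 stood at -1.37 (unadjusted p = 0.0517). Placebo array 2, the highest array for Cct7, had a weight of 4.97, against 0.342 to 1.2 for the other arrays. With these weights 2900 of 21874 genes were lower at an unadjusted p under 0.05 in limma.

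**Figure D1:**
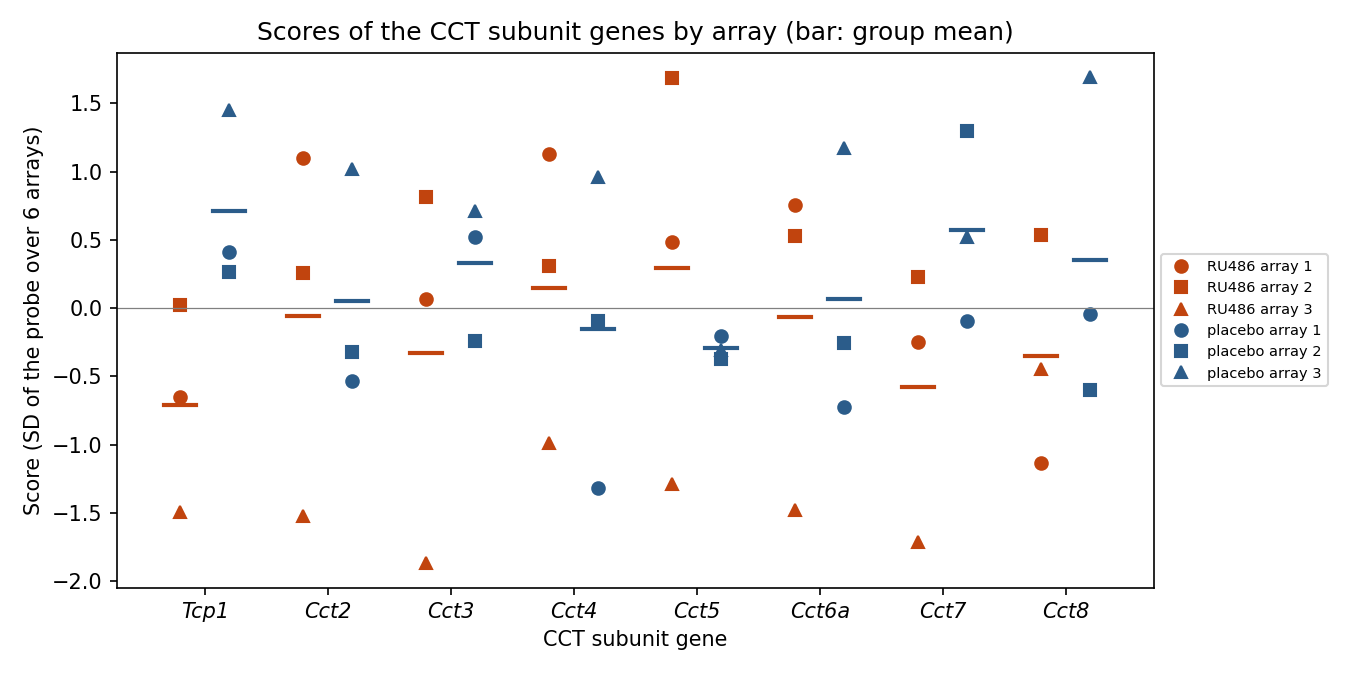
Scores of the 8 CCT subunit genes (vertical axis, SD of the probe over 6 arrays) on the RU486 arrays (left in each pair) and placebo arrays (right), with bars at the group means. Tcp1 has all 3 RU486 arrays below all 3 placebo arrays, and RU486 array 3 is the lowest of the 6 arrays for 6 genes.

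Cct8, the theta subunit, had -1.14, 0.537 and -0.447 in RU486 arrays 1 to 3, against -0.0444, -0.597 and 1.69 in placebo arrays 1 to 3. Its placebo array 3 stood far above the other arrays, and RU486 array 2 was the next highest. The difference was -0.70 (SE 0.843), and without placebo array 3 it was -0.03.

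Cct3, the gamma subunit, had 0.0632, 0.817 and -1.87 in RU486 arrays 1 to 3, against 0.523, -0.243 and 0.709 in placebo arrays 1 to 3. A single array set its difference of -0.66 (SE 0.851): RU486 array 3 lay 1.63 below the lowest of the other 5 arrays, and without it the difference was 0.11.

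Cct2, Cct4 and Cct6a, the beta, delta and zeta subunits, had similar profiles, with RU486 and placebo groups that overlapped. Cct2 had 1.10, 0.256 and -1.52 in RU486 arrays 1 to 3 and -0.532, -0.320 and 1.02 in placebo arrays 1 to 3. Cct6a had 0.753, 0.528 and -1.48 in RU486 arrays 1 to 3 and -0.725, -0.256 and 1.18 in placebo arrays 1 to 3. In both genes RU486 array 1 and placebo array 3 were high and RU486 array 3 was low, so that the spread within a group exceeded the difference between groups.

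Cct4 had 1.13, 0.310 and -0.986 in RU486 arrays 1 to 3 and -1.32, -0.0943 and 0.958 in placebo arrays 1 to 3. Its lowest score was on placebo array 1. The differences were -0.11 for Cct2 (SE 0.911), -0.13 for Cct6a (SE 0.911) and 0.30 for Cct4 (SE 0.900). Their 95% intervals ran from -2.64 to 2.42, from -2.66 to 2.40 and from -2.20 to 2.80, wider than the scale itself allows, so these data do not show that the 3 genes stayed level.

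Cct5, the epsilon subunit, had the highest positive difference of the 8, 0.59 (SE 0.864, adjusted p = 0.814 in limma). Its scores were 0.482, 1.68 and -1.29 in RU486 arrays 1 to 3 and -0.206, -0.370 and -0.304 in placebo arrays 1 to 3. The placebo arrays lay close together, with a mean of -0.293 ± 0.0826 against 0.293 ± 1.50 for the RU486 arrays (SD, n = 3 each). RU486 arrays 1 and 2 were above all placebo arrays and RU486 array 3 below them. Without RU486 array 3 the difference was 1.38 (SE 0.452, adjusted p = 0.624) and the groups did not overlap, as in 6476 of 21874 genes. Without RU486 array 2 the difference was -0.11.

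RU486 array 3 was the lowest of the 6 arrays in 6 of the 8 genes, where it was the lowest array for 14.4% of all genes. It was below 0 in 8 of the 8, as were 56.6% of all genes on that array. Other arrays gave the subunits a sign that was as uniform or nearly so. RU486 array 2 was above 0 in 8 of the 8, against 51.4% of all genes, and placebo array 3 in 7 of the 8, against 60.1% of all genes. The mean score of the 8 subunits was 0.186, 0.548 and -1.35 in RU486 arrays 1 to 3 and -0.248, -0.0398 and 0.902 in placebo arrays 1 to 3. The RU486 arrays thus held the second highest and the lowest of the 6 means. Without RU486 array 3 the median difference of the subunits was 0.34 in place of -0.39, where the median of all genes was -0.02. Without placebo array 3, the array with the highest mean, 4 of the 8 were lower and their median was 0.17, where that of all genes was 0.20.

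**Figure D2:**
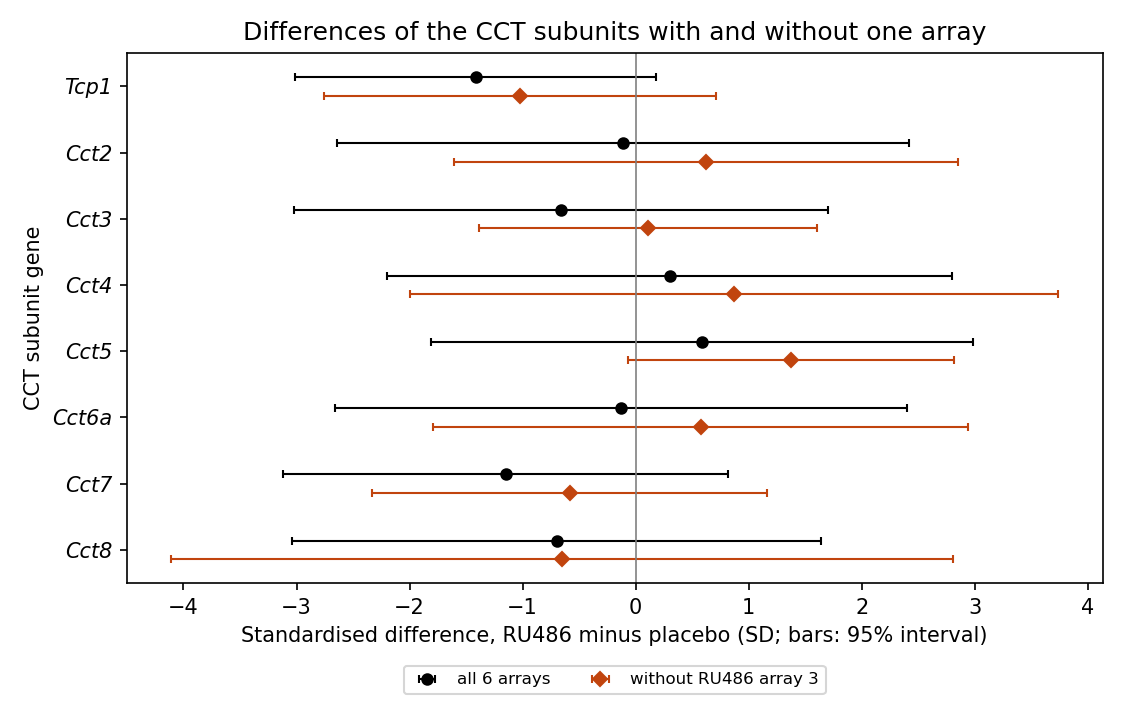
Standardised difference of each CCT subunit, RU486 minus placebo (horizontal axis, SD), with 95% intervals of the ordinary limma fit, for all 6 arrays (circles) and without RU486 array 3 (diamonds). All 16 intervals include 0, and without that array Cct2, Cct3 and Cct6a change sign.

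Likeness between genes was measured as the root mean square difference of their scores over the 6 arrays, which is 0 for identical profiles. It is a description over 6 arrays, which the genes share. Of the 28 pairs of subunits, Cct2 and Cct6a were the closest, at 0.209, followed by Cct4 and Cct6a at 0.377 and Cct2 and Cct4 at 0.399. The farthest were Cct5 and Cct8, at 1.20. Tcp1 was nearest to Cct3 (0.594) and Cct7 (0.639). Against the mean of the other 7 subunits, Cct6a was the nearest at 0.364 and Cct8 the farthest at 0.954, so the zeta subunit came closest to the average profile.

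Outside the complex, the 6 genes with profiles most like the mean of the 8 subunits were Ckap4 (0.130), Eif3i (0.165), Aldh18a1 (0.178), Rnf207 (0.180), Laptm5 (0.195) and P4ha3 (0.195). Ckap4 codes for a membrane protein of the endoplasmic reticulum, Eif3i for a subunit of translation initiation factor eIF3 and Laptm5 for a lysosomal membrane protein of blood cells. The gene in rank 7 of 21866 was Hspe1 (0.204), which codes for the co-chaperonin of mitochondria. Hspe1 scored 0.453, 0.386 and -1.82 in RU486 arrays 1 to 3, against -0.332, 0.244 and 1.07 in placebo arrays 1 to 3. Like most CCT subunits it was lowest on RU486 array 3. Its partner gene Hspd1, the mitochondrial chaperonin itself, had a difference of 0.74 (SE 0.836), with overlapping groups.

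Most macrophage markers were lowest on RU486 array 3 as well. Where 14.4% of all genes had their lowest score on that array, 4 of 5 such markers (Adgre1, Csf1r, Cd68, C1qa and Mrc1) did. Their mean scores were -0.691, 1.33 and -1.14 in RU486 arrays 1 to 3 and -0.284, 0.00319 and 0.782 in placebo arrays 1 to 3. In likeness to the subunits C1qa stood at rank 318 of 21866, Csf1r at 338, Adgre1 at 526, Mrc1 at 3159 and Cd68 at 3774. The part of macrophages in the subunit scores was not tested. Markers of granulosa cells had means of -0.987, 1.18 and -0.193 on the RU486 arrays and -0.730, 0.625 and 0.106 on the placebo arrays, with 0 of 5 lowest on RU486 array 3. On that array 3 of 3 red cell markers were lowest, and 2 of 5 for T cells and for smooth muscle. The count was 1 of 5 for endothelial, neutrophil and epithelial markers each, and 1 of 3 for B cell markers.

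Among the genes that work with CCT, prefoldin was lower in 5 of 6 subunit genes (4 of 6 with array medians set equal), with a median difference of -0.87. In limma 0 passed over all genes. At an unadjusted p of 0.05, 1 of the 6 was lower, where 7.07% of all genes were, and 3 of the 6 had groups that did not overlap, where 22.0% of all genes did. Vbp1, a prefoldin subunit, had -1.69, -0.0911 and -0.530 in RU486 arrays 1 to 3 and 0.588, 0.800 and 0.926 in placebo arrays 1 to 3, with groups that did not overlap (difference -1.54, SE 0.488, unadjusted p = 0.0341 and adjusted p = 0.390 in limma). Pfdn4 was separated the same way (-1.45, SE 0.555), and Pfdn2 the opposite way (1.33, SE 0.628). Pfdn6 was lowest on RU486 array 3, at -1.95, as most CCT subunits were. Pfdn1 (-0.94, SE 0.782) and Pfdn5 (-0.15, SE 0.910) had overlapping groups. Without RU486 array 3 the prefoldin median was -0.34.

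Of the 3 phosducin-like genes, Pdcl (0.28), Pdcl2 (0.82) and Pdcl3 (-0.98) had overlapping groups. The tubulin cofactors, which take tubulin from CCT and assemble the dimer, were lower in 3 of 7 genes, with a median of 0.06. Tbcc (-1.66, SE 0.382), Tbcb (-1.28) and Tbca (-1.27) had groups that did not overlap, 3 of 7 where 10.8% of all genes were separated with RU486 lower, and this count was 2 after centring or quantile normalization. Tbcd, Tbce, Tbcel and Arl2 lay between 0.06 and 0.81 with overlap. The division did not hold with array weights or without placebo array 1, where 6 of the 7 cofactors were lower and the medians were -0.37 and -0.69. Among relatives of the complex, Cct6b (-0.14) and Cct8l1 (0.99) and the chaperonin-like genes Mkks (0.70), Bbs10 (1.19) and Bbs12 (-0.61) of Bardet-Biedl syndrome had overlapping groups.

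Actins and tubulins are the clients that the chaperonin is known for. All 14 measured actin, tubulin and actin-related genes were lower with RU486 (13 with array weights, and 13 without any single array other than RU486 array 2), with a median difference of -1.46. At an unadjusted p of 0.05, 6 were lower and 0 higher (background 7.07% lower, 5.24% higher), and in 8 of 14 the groups did not overlap, with RU486 lower (background 10.8%). None passed over all genes (lowest adjusted p = 0.306 in limma). With a replicate block in limma, 0 of the 14 were lower at an unadjusted p of 0.05, where 1115 of 21874 genes were. Actb, the beta-actin gene, had -1.44, -0.777 and -0.295 in RU486 arrays 1 to 3 and 1.11, 0.595 and 0.803 in placebo arrays 1 to 3 (difference -1.67, SE 0.364). Tubb2a stood at -1.68 (SE 0.363), Tubb6 at -1.65 (SE 0.388) and Tuba1b at -1.63 (SE 0.411). Tubulin and actin genes have near-identical copies, so their probes may share signal. Without RU486 array 3 the median of this list was -1.32. Markers of most other cell types had medians in the same direction. Granulosa markers were lower in 2 of 5 genes, with a median of 0.34, and in 5 of 5 with array weights or without RU486 array 2. Smooth muscle, a cell type rich in actin, was lower in 5 of 5 marker genes, with a median of -0.41. Its mean scores lay between -0.696 and 0.246 on the RU486 arrays and between -0.386 and 1.68 on the placebo arrays, and without placebo array 3 its markers were lower in 1 of 5, with a median of 0.46. Myh11, the smooth muscle myosin heavy chain gene, stood at -1.78 (SE 0.209, unadjusted p = 0.00105, adjusted p = 0.212 in limma). Endothelial markers were lower in 5 of 5 genes (median -1.21, and -0.76 without placebo array 2), B cell markers in 3 of 3 (median -1.35) and neutrophil markers in 4 of 5 (median -1.51). Red cell markers were lower in 3 of 3 genes (median -1.02), and their median was -0.27 without placebo array 1. Their groups did not overlap in 3 of 3 genes (background 10.8%), and in 0 of 3 after median centring or quantile normalization. T cell markers were lower in 4 of 5 genes (median -0.94) and epithelial markers in 3 of 5 (median -0.70, and 0.10 without placebo array 3). The part of these cells in the actin and tubulin scores was not tested.

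**Figure D3:**
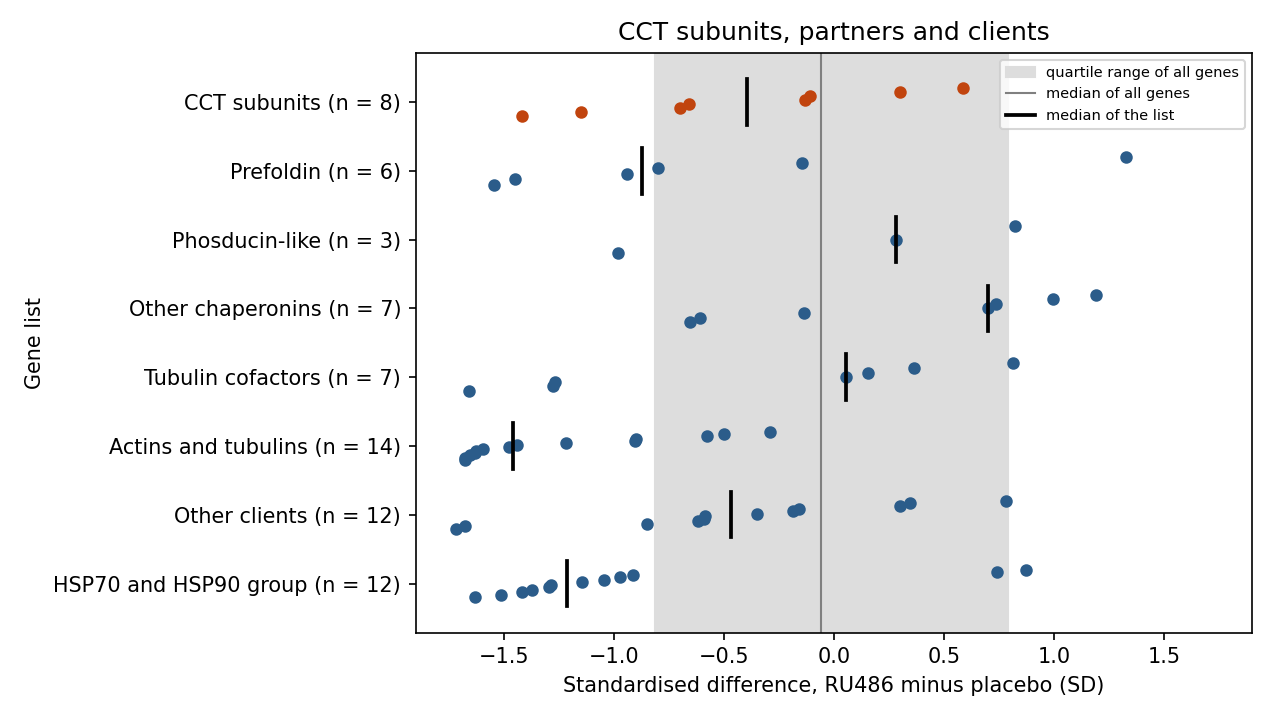
Standardised difference of every measured gene (points; horizontal axis, RU486 minus placebo, SD) in the CCT subunits, their partners, their clients and other cytosolic chaperones, with list medians (black) and the median and the quartile range of all genes (grey). The subunit median is -0.39 and that of actins and tubulins -1.46.

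Of 12 other clients, 9 were lower (12 with array weights), with a median of -0.47. The median rested on single arrays. Leaving out RU486 array 1 gave 0.02 and leaving out RU486 array 2 gave -1.004, while leaving out placebo array 3 gave -0.08 and placebo array 1 gave -0.94. With array weights it was -0.89. At an unadjusted p of 0.05, 2 of the 12 were lower (background 7.07%). Cdc20, the activator of the anaphase-promoting complex, had -0.785, -0.591 and -1.20 in RU486 arrays 1 to 3 and 0.664, 0.547 and 1.36 in placebo arrays 1 to 3, a difference of -1.72 (SE 0.312, unadjusted p = 0.00530, adjusted p = 0.272 in limma). Ccne1, the cyclin E1 gene, stood at -1.68 (SE 0.361). These were the 2 genes of that list whose groups did not overlap (background 22.0%). The proliferation genes Mki67 (-1.68), Cdk1 (-1.73) and Top2a (-1.59) were separated in the same direction, as were 10.8% of all genes. Myc, whose product is known to act on chaperonin genes, stood at -0.23 (SE 0.906) with its lowest score, -1.84, on RU486 array 3. Pgr, the gene of the progesterone receptor that RU486 binds, went the other way. It scored -0.0751, 1.66 and -0.0681 in RU486 arrays 1 to 3, against -0.628, -0.0443 and -0.840 in placebo arrays 1 to 3, as the mean of 2 probes. RU486 array 2 was high and the other RU486 arrays lay just below placebo array 2, so the groups overlapped (difference 1.01, SE 0.623, adjusted p = 0.582 in limma). The groups of Pgr did not overlap after median centring or quantile normalization, where 1492 and 1424 of 21874 genes were separated with RU486 higher. The difference of Pgr fell to 0.35 with array weights and to 0.43 without RU486 array 2. With the first of its 2 probes alone the difference was 1.60, with an unadjusted p under 0.05 in limma. The groups did not overlap for that probe, as in 2446 of 21874 genes with RU486 higher.

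Other cytosolic chaperones act before or beside CCT on the same kind of unfolded protein. Of 12 genes of the HSP70 and HSP90 systems, 10 were lower, where 51.6% of all genes were, with a median difference of -1.21 that was -0.70 without placebo array 3. At an unadjusted p of 0.05, 2 of the 12 were lower (background 7.07%), and 1 was after median centring. The groups did not overlap in 4 of the 12, all with RU486 lower (background 10.8%). These were Ahsa1 (-1.63, SE 0.409), which codes for an activator of HSP90, Hspa1a (-1.51, SE 0.510), an inducible HSP70 gene with a near-identical copy, Stip1 (-1.42, SE 0.576), which links HSP70 and HSP90, and Dnajb1 (-1.37, SE 0.602), an HSP40 gene. None passed over all genes (lowest adjusted p = 0.362 in limma). Whether these lists differ from the CCT subunits was not tested, and all of them were read from the same 6 arrays.

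**Figure D4:**
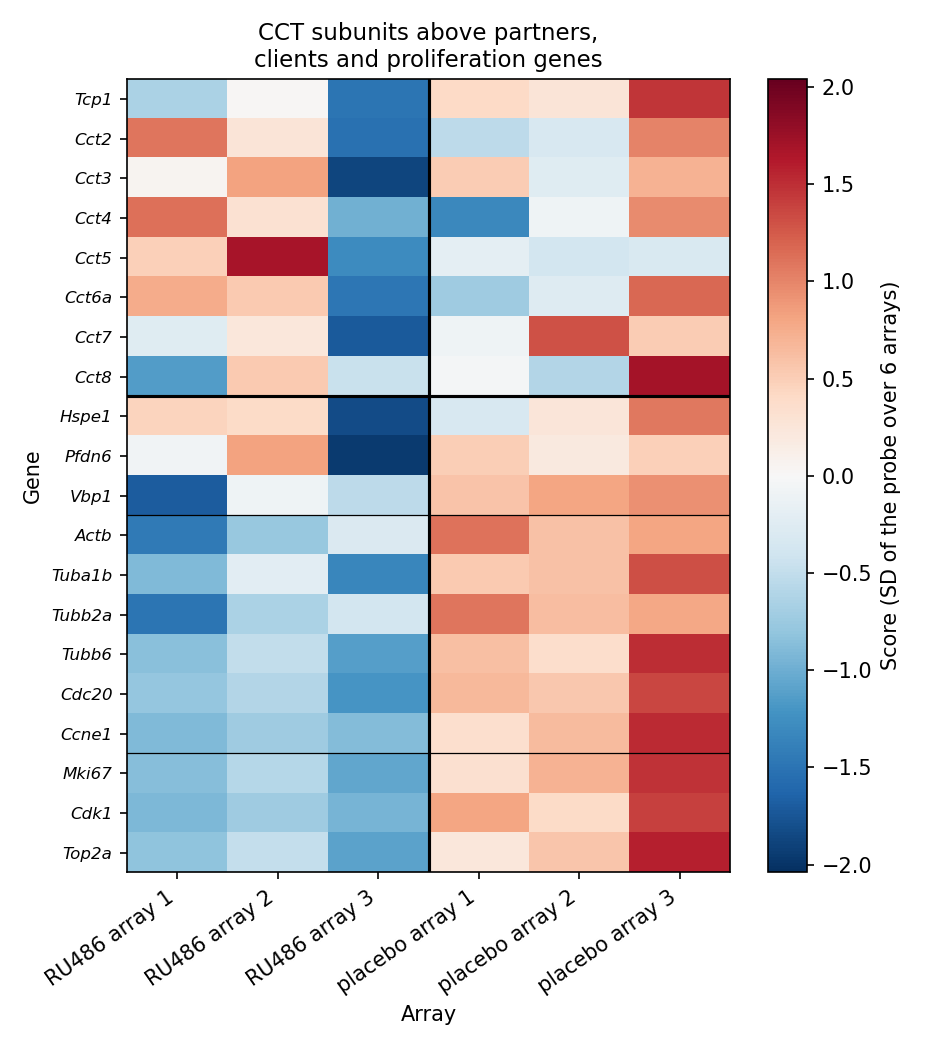
Scores (colour, SD of the probe over 6 arrays) of the 8 CCT subunits (top block), Hspe1 and 2 prefoldin genes, 6 client genes, and 3 proliferation genes, on the RU486 arrays (left) and placebo arrays (right). The partner and client genes were picked for low p-values or likeness to the subunits, so that the client rows separate the treatments by choice, while the 8 subunits are shown whole. Over the whole lists the groups did not overlap in 1 of 8 subunits, 8 of 14 actin and tubulin genes and 2 of 12 other clients. They did not overlap in 22.0% of all genes.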

How the data were processed

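Single-colour Agilent arrays of 3 RU486 and 3 placebo tumours were compared, grouped by sample title. The deposited values are a score per probe, which the values show to be centred to mean 0 and scaled to SD 1 over the 6 arrays (largest score 2.04). The authors used Partek, per the submitters' processing notes, and what was done before scaling (background correction, normalization, filters) is not given in the sources used here. Signal over background is unknown, and the number of arrays limits the precision.

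Among 37932 probes, 24903 carried 1 gene symbol, 0 carried several and 13029 were unnamed; Entrez IDs of 24627 matched RefSeq (GRCm38.p6), which changed 0 symbols. Probes of a gene were averaged (21874 genes). Limma 3.58.1 (R 4.3.3) was run on every gene with treatment as the term, using the ordinary two-sided statistic with Benjamini-Hochberg adjustment over all genes, and the fit was tested on simulated data. The members and lists were chosen with earlier results of these data known, and motifs were chosen after the scores were seen. Named genes are the 8 members, up to 4 genes of smallest p in each list (any in lists of up to 8), the 6 genes most like the members' mean, and a panel of 6, of which Hsf1 was not analysed here. Actr2, Hspa1b and Hsp90ab1 of the lists were not analysed here either. Alternatives were eBayes moderation, median centring, quantile normalization, array weights, a replicate block, the first probe, a rescaled gene mean and leaving out each array.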

Additional observations from a re-analysis of the deposited data

How the results depend on the processing

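No CCT subunit passed an adjusted p of 0.05 under any of the 14 settings run. At an unadjusted p of 0.05, 0 subunits were lower without any single array. With array weights 1 was, Cct7, where 2900 of 21874 genes were. Groups that did not overlap were seen in 2 subunits, Tcp1 and Cct7, after median centring and after quantile normalization. In those settings 3737 and 3803 of 21874 genes had such groups. Without single arrays 1 to 2 subunits had them, where 6043 to 8924 of all genes did. The median difference of the subunits ran from -0.785 (without RU486 array 2) to 0.343 (without RU486 array 3). Centring moved the median of all genes by 0.168, array weights by -0.223, and leaving out single arrays by -0.306 (RU486 array 2) to 0.262 (placebo array 3). Cct2 changed sign after centring (0.0594) and with array weights (0.0313), and Cct6a after centring (0.0381). Without single arrays the differences ran from -0.686 to 0.623 for Cct2, -1.23 to 0.110 for Cct3, -0.281 to 0.870 for Cct4, -0.109 to 1.38 for Cct5 and -0.539 to 0.575 for Cct6a; the cause was not tested. Tcp1, Cct7 and Cct8 kept a negative difference under every setting.

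Without single arrays the list medians ran from -1.20 to -0.338 for prefoldin, -0.197 to 0.530 for phosducin-like genes, 0.0618 to 0.855 for the chaperonin relatives, -0.688 to 0.513 for tubulin cofactors, -1.62 to -1.30 for actins and tubulins, -1.004 to 0.0170 for other clients and -1.54 to -0.701 for the HSP70 and HSP90 group. With array weights the medians of phosducin-like genes (-0.303) and chaperonin relatives (-0.164) turned negative; the cause was not tested.

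Over all genes, 1 passed an adjusted p of 0.05, 0 with eBayes moderation, median centring, quantile normalization or the replicate block, 7 with array weights, and 1 to 3 without single arrays. An unadjusted p under 0.05 was reached by 2694 genes, by 5649 with array weights, 1534 with the replicate block, and 1497 to 3862 without single arrays. Replicate numbers were not taken to pair the samples, since the labels do not say that they mark a shared mouse, litter or batch. Deviations of same-numbered arrays correlated over genes at 0.254, 0.0539 and -0.272, and those of differently numbered arrays at -0.36 to 0.357. Deviations sum to 0 within each group, so these correlations cannot decide whether samples were paired. With the replicate block 0 subunits passed. The low-value filter and the depth behind a score could not be examined on scaled values.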
